A study of Mus musculus with 2 samples.

Results

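The genes described here encode the degradative machinery of the lysosome: 36 mouse genes chosen by name, out of 21887 protein-coding genes on the chromosomes of the peak lists. They comprised 7 cathepsins, 12 other hydrolases, 3 soluble proteins that are not enzymes, 5 membrane proteins, 8 subunits of the proton pump and the transcription factor gene Tfeb, and each was found in the mm10 annotation (GRCm38.p6). KAT8, a lysine acetyltransferase of the MYST family, was mapped by CUT&Tag, an assay in which an antibody brings a transposase to the protein so that nearby DNA is cut and tagged. The cells were primary wild-type mouse macrophages differentiated from bone marrow in M-CSF at 20 ng/ml. The 2 groups were an untreated culture (1 library) and a culture given R848, an agonist of the endosomal receptor TLR7, at 100 ng/ml for 2 h (1 library). The labels used here give no strain, sex or age. With 1 library per group no difference below has a replicate check or a p-value.

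The lysosome breaks down proteins, lipids, glycans and nucleic acids delivered by endocytosis, phagocytosis and autophagy, and in macrophages it also digests engulfed particles. Its acid hydrolases work at low pH, which the vacuolar proton pump maintains: the V1 sector hydrolyses ATP in the cytosol and the V0 sector carries protons through the membrane. TFEB, with its relatives TFE3 and MITF, binds a short palindrome called the CLEAR element, with CACGTG at its core, that is common in promoters of lysosomal genes. TLR7 itself signals from endosomes and lysosomes.

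The promoters of 7 of these genes are given first, to show CLEAR cores in genes with and without KAT8 peaks. They were picked as examples and do not represent the whole list: untreated gene-end peaks lay at 8 of 11 genes with CACGTG near a listed start and at 15 of 18 without it, and the 3 with CACGTG and no gene-end peak in either list are all among those printed. Each is the 150 bases before the transcript start, 5′ to 3′ on the gene's strand, from RefSeq (GRCm38.p6), with every CACGTG in capitals. The first 3 genes had no peak near either end in either library, Naglu and Ctsd had such peaks in the untreated list alone, and Glb1 and Psap had them in both.
Lamp1: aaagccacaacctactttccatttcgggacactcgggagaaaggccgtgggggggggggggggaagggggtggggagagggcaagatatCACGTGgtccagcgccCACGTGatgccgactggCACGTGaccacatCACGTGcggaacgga
Mcoln1: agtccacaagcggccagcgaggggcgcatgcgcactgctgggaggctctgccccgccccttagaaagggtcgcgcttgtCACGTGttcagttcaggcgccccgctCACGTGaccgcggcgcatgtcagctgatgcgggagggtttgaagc
Gaa: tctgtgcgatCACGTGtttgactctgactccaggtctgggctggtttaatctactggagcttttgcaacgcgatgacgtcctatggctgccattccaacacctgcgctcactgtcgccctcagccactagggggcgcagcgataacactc
Naglu: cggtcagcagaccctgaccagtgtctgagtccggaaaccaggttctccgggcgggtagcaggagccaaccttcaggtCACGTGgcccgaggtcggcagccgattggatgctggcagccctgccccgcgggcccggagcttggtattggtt
Ctsd: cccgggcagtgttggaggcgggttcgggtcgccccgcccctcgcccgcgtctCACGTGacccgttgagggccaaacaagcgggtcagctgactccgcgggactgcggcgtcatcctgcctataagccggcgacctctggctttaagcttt
Glb1: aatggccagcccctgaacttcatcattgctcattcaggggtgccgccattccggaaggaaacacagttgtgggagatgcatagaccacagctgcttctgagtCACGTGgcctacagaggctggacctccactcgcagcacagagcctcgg
Psap: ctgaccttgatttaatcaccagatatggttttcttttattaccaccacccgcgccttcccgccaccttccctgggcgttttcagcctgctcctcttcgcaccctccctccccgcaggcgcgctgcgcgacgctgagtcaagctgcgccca
These stretches lie at chr8:13159011-13159160 (plus strand), chr8:3500369-3500518 (plus strand), chr11:119267813-119267962 (plus strand), chr11:101069944-101070093 (plus strand), chr7:142387828-142387977 (minus strand), chr9:114400928-114401077 (plus strand) and chr10:60277478-60277627 (plus strand). None overlapped another annotated gene. Lamp1, which encodes the major glycoprotein of the lysosomal membrane, carried 4 copies of CACGTG within 61 bases of its start and Mcoln1, a lysosomal calcium channel gene, carried 2. No KAT8 peak covered either stretch.

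A gene was counted as having a gene-end peak where any base of a listed peak fell at most 1000 bp from where the annotated gene begins or stops. Untreated macrophages had one at 26 of the 36 genes (72.2%), against 28.8% of all protein-coding genes. R848-treated cells had one at 18 (50%), against 24.4%. This list and a wider one below were chosen with earlier results of these data known, so their shares are descriptive only. Of the 36 genes, 17 had a gene-end peak in both lists, while only 17.3% of all protein-coding genes did. At 16 of the 17 genes the peaks overlapped by at least 1 bp. A further 9 of the 36 had such a peak in the untreated list alone (11.5% of all protein-coding genes did), 1 in the R848 list alone (7.11%), and 9 in neither. The hydrolases accounted for 5 of the 9 untreated-only genes, while the pump had 6 of 8 subunits with a peak in each list. Many of these peaks also lay at another gene's end. With R848, Atp6v1h was the only pump gene, and Lipa the only other hydrolase gene, with a gene-end peak not so shared. Without treatment these were Atp6v0c, Atp6v0a1 and Atp6v1h of the pump, and Gusb, Naglu, Lipa and Smpd1 of the hydrolases. Whether the lists of genes differ in their share with a peak was not tested. A wider list of lysosomal genes, given below, did not show the same contrast between pump and hydrolases.

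**Figure D1:**
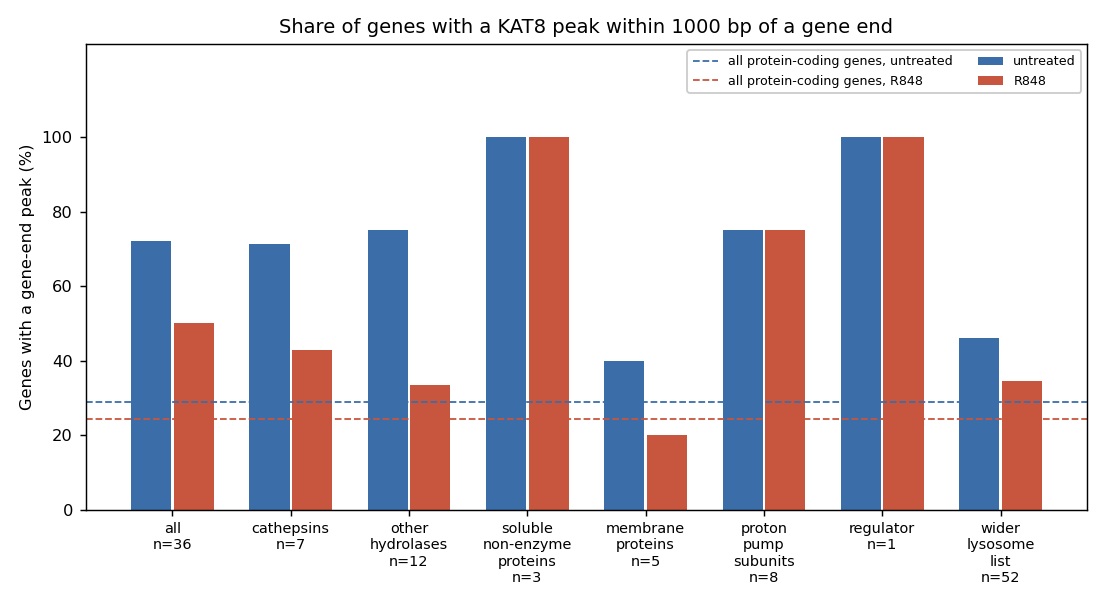
Share of genes with a KAT8 peak within 1000 bp of a gene end, by gene list, in the untreated (blue) and R848 (red) library; bars are counts over the genes of each list in 1 library, without error bars, and dashed lines give the share of all protein-coding genes (28.8% and 24.4%). The pump subunits stood at 75% in both libraries, and the hydrolases at 75% untreated and 33.3% with R848. Peaks that also lie at another gene's end are counted here.

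Most of these peaks were small. The authors list every peak with a fold over local background and a significance, and the number of overlapping fragments at the summit can be solved from those values. The 36 untreated gene-end peaks of these genes held 10 to 39 fragments (median 14.5) and the 20 R848 gene-end peaks 8 to 23 (median 11). The lowest pileup listed anywhere was 8 fragments (untreated) and 7 (R848), and the lowest background was 3.37 and 2.62 fragments, so the R848 library was the shallower by this measure. A q-value of 0.05 or less was reached by 24 of the 36 untreated and 11 of the 20 R848 peaks. By gene, 19 (52.8%) and 11 (30.6%) had a gene-end peak of that strength, against 16.7% and 15.1% of all genes. Where a gene has no peak in a list, the fragments there were below what the caller listed, and the difference from the other library was not measured. In all parts below, folds and q-values are the authors' and describe a peak within its own list.

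**Figure D2:**
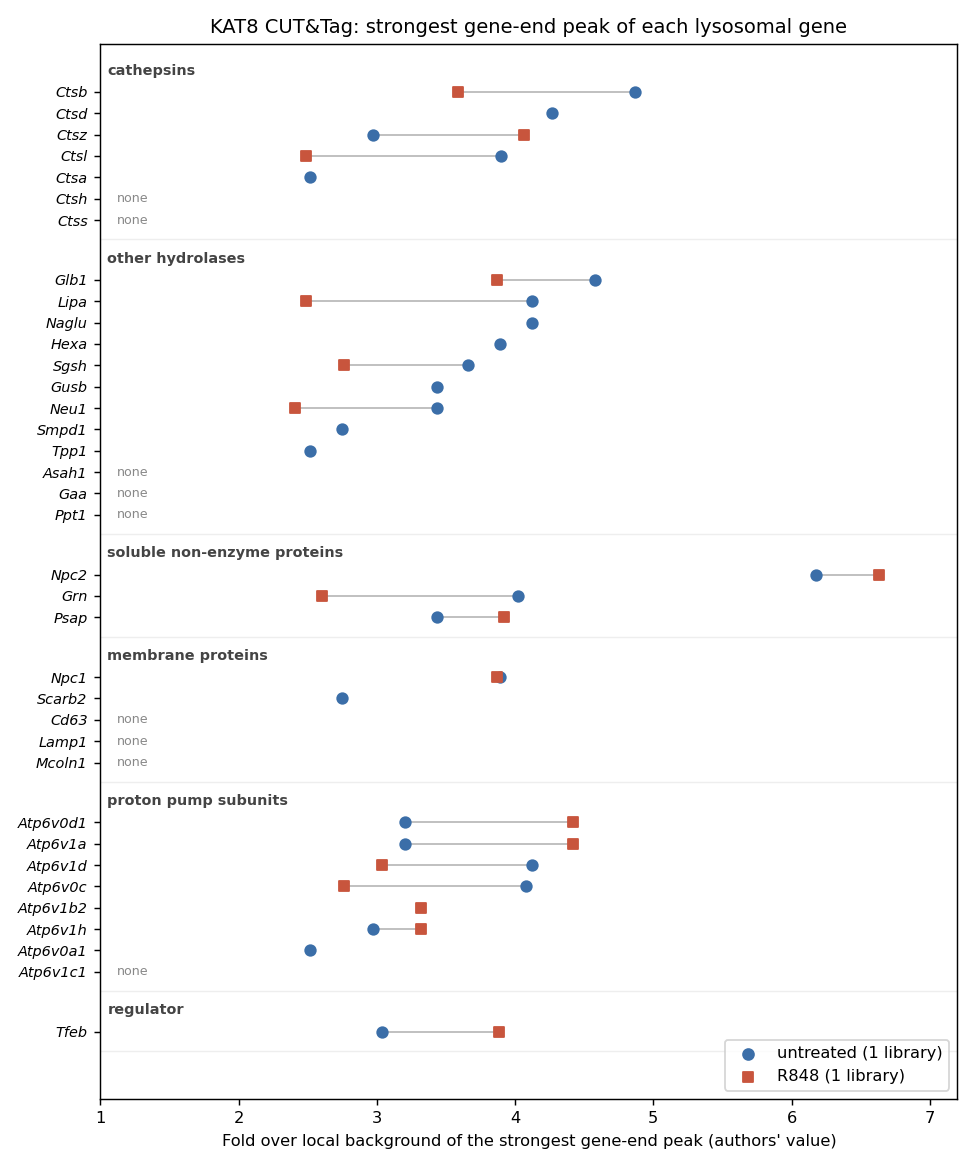
Fold over local background of the strongest gene-end peak of each gene (horizontal axis, authors' value) in the untreated (blue circles) and R848 (red squares) library, grouped by list; a grey line joins the values of genes with a peak in both, and "none" marks the 9 genes with neither. Npc2 has the highest fold in each library (6.18 and 6.63).

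Npc2 and the other soluble proteins that are not enzymes had gene-end peaks in both libraries. Npc2 encodes the luminal protein that hands cholesterol to NPC1. Its untreated peak (chr12:84772791-84773407) reached fold 6.18 and −log10 q 11.2 with 26 fragments (95% exact Poisson interval 17.0 to 38.1, counting error only). Its R848 peak (chr12:84772674-84773347) reached fold 6.63 and −log10 q 10.8 with 23 fragments (14.6 to 34.5). The summits lay 8 and 37 bp upstream of the listed transcript start. Both peaks also lay at the end of Isca2, an iron-sulfur cluster assembly gene that adjoins Npc2, so they cannot be assigned to Npc2 alone. They were the strongest gene-end peaks of the 36 genes and ranked 1092 of 52001 and 940 of 44772 peaks by p-value. Psap encodes prosaposin, the precursor of the activators of sphingolipid hydrolases. Its start carried 17 fragments in the untreated library (chr10:60277651-60278109, fold 3.44) and 15 with R848 (chr10:60277372-60278173, fold 3.92), with overlapping peaks at no other gene's end. The promoter of Psap printed above has no CACGTG in the 150 bases shown. Grn encodes progranulin, a secreted and lysosomal precursor of granulins. At its start the untreated peak had 20 fragments (chr11:102430161-102430594, fold 4.02, −log10 q 4.71) and the R848 peak 9 (chr11:102430190-102431302, fold 2.60, −log10 q 0.52). These overlapped, with summits 176 bp upstream and 370 bp downstream of the start. A second overlapping pair lay inside Grn, with summits 1825 and 1958 bp from its start and 10 and 9 fragments.

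Gene-end peaks were found at 5 of the 7 cathepsin genes without treatment and at 3 with R848. Ctsb encodes the cysteine protease cathepsin B, and both of its ends had peaks in both libraries. At its lowest coordinate the untreated peak held 25 fragments (fold 4.87, −log10 q 7.96, chr14:63122390-63122926), and the R848 peak 10 (fold 3.04, −log10 q 1.01, chr14:63122468-63122926). At the other end, which adjoins Fdft1, an enzyme gene of sterol synthesis, overlapping peaks had folds of 2.57 untreated and 3.59 with R848. Strand was not available for Ctsb in the promoter table, so its ends are not called 5′ or 3′. Ctsl, the gene of cathepsin L, had overlapping 5′ peaks in both lists, with 14 fragments untreated (fold 3.43) and 8 with R848 (fold 2.49, −log10 q 0.23), and a stronger untreated peak at its 3′ end alone (fold 3.90, chr13:64360755-64361301). Ctsz encodes cathepsin Z, a carboxypeptidase, and its 5′ peaks did not coincide between the libraries. The untreated one had 12 fragments and a summit 925 bp downstream of the start (fold 2.98), and the R848 one 15 fragments and a summit 52 bp upstream (fold 4.06, −log10 q 3.45, chr2:174439000-174439235). Ctsz was thus the gene with peaks in both lists and no overlap between them.

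Ctsd and Ctsa had gene-end peaks in the untreated list alone. Ctsd encodes the aspartic protease cathepsin D, and its 5′ peak held 27 fragments, interval 17.8 to 39.3 (fold 4.27, −log10 q 7.12, chr7:142387457-142388132, summit 122 bp upstream of the start). That peak covered both copies of CACGTG in the Ctsd promoter. A peak beyond the 3′ end of Ctsd, near Ifitm10, held 39 fragments over a local background of 13.5 (fold 2.75). Ctsa encodes the carboxypeptidase that protects β-galactosidase and neuraminidase. Its peak, which also lay at an end of Neurl2, was weak (10 fragments, fold 2.52, −log10 q 0.46). The summit lay 20 bp downstream of the second listed start of Ctsa, where 2 copies of CACGTG straddle the start. Ctss, the gene of cathepsin S, which trims the invariant chain for antigen presentation, had 1 untreated peak inside the gene, 14393 bp from its start (fold 2.98), and no R848 peak. Ctsh, the gene of cathepsin H, had no peak in either list.

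The 12 other hydrolase genes showed a gene-end peak 9 times without treatment and 4 times with R848, and the 4 were all among the 9. Glb1 encodes β-galactosidase. Its 5′ peaks overlapped, with 19 fragments untreated (fold 4.58, −log10 q 5.51, chr9:114400865-114401271) and 13 with R848 (fold 3.87, −log10 q 2.69, chr9:114400914-114401408), and both covered the CACGTG at 48 bases before the start. Tmppe, a gene at the same place, shares these peaks. Sgsh, the gene of the heparan sulfatase sulfamidase, had 15 fragments untreated and 9 with R848 (folds 3.66 and 2.76) in overlapping peaks that also lie at the start of Slc26a11. Lipa encodes lysosomal acid lipase, which frees cholesterol from its esters, and had 17 and 8 fragments (folds 4.12 and 2.49). Neu1, the sialidase gene, had 14 and 8 fragments (folds 3.43 and 2.41) in peaks that also lie at an end of Slc44a4. At each of these 4 genes the untreated peak reached a q of 0.05, and with R848 the peak at Glb1 did and those at Sgsh, Lipa and Neu1 did not (−log10 q 0.58, 0.23 and 0.23).

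The other 5 hydrolases with a gene-end peak had it in the untreated list alone, and 3 of these peaks lay at the transcript start with a q under 0.05. Naglu encodes the α-N-acetylglucosaminidase of heparan sulfate breakdown. Its peak held 17 fragments, interval 9.90 to 27.2 (fold 4.12, −log10 q 4.11, chr11:101069868-101070179), and covered the CACGTG at 73 bases before the start. A second, weaker untreated peak had its summit 366 bp downstream of the start (fold 2.98). Hexa encodes the α subunit of β-hexosaminidase, the enzyme that degrades GM2 ganglioside, and had 16 fragments (fold 3.89, −log10 q 3.47, chr9:59539451-59540027, summit 55 bp downstream of the start), beside Tmem202. Gusb, the gene of β-glucuronidase, had 14 fragments (fold 3.43, −log10 q 2.28, chr5:130002790-130003111, summit 117 bp downstream). At Smpd1, which encodes acid sphingomyelinase, 2 weak untreated peaks lay near the 5′ and the 3′ end (folds 2.31 and 2.75). The one near the 3′ end also lay at an end of Apbb1. Tpp1, the gene of tripeptidyl peptidase 1, had a weak untreated peak at its 3′ end, adjoining Taf10 (fold 2.52, −log10 q 0.46), and an R848 peak of 7 fragments inside the gene. No R848 peak overlapped a gene-end peak of the 9 genes with such peaks in the untreated list alone, inside the windows or outside them. Asah1, the acid ceramidase gene, had overlapping peaks inside the gene in both lists (folds 3.20 and 2.49) and none at its ends. Gaa, the gene of acid α-glucosidase, and Ppt1, the gene of palmitoyl-protein thioesterase 1, had no peak.

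The 5 membrane protein genes had the lowest share of the 6 lists, with gene-end peaks at 2 genes untreated and at 1 with R848. Npc1 encodes the membrane protein that exports cholesterol from the lysosome, and its highest-coordinate end had overlapping peaks of 16 and 13 fragments (folds 3.89 and 3.87, chr18:12236144-12236721 and chr18:12236333-12236623). Npc1 and Npc2, whose products pass on cholesterol in turn, were among the 17 genes with gene-end peaks in both libraries. The Npc2 peaks also lay at the end of Isca2. Scarb2 encodes LIMP-2, the receptor that carries glucocerebrosidase to lysosomes. It had an untreated 5′ peak (11 fragments, fold 2.75) and, 24 kb into the gene, a pair of overlapping peaks with summits 24222 and 24228 bp from the start (folds 3.24 and 2.88). Cd63 encodes a tetraspanin of late endosomes. Its peaks lay inside the annotated gene, with summits 531 and 401 bp downstream of the transcript start that the promoter table lists, and overlapped between the libraries with 13 fragments each (folds 3.20 and 3.87, chr10:128909480-128910025 and chr10:128909410-128909912). The annotated gene begins further upstream than this start, which is why these peaks fall outside the gene-end windows. Lamp1 had 1 R848 peak inside the gene, 11094 bp from its start (11 fragments, fold 3.32), and Mcoln1 had no peak.

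Gene-end peaks were found at the same number of proton pump genes in both libraries, 6 of 8, with 5 subunits in common. Atp6v0d1 encodes a d subunit of V0, and its overlapping 5′ peaks lay beside Agrp. They had 13 fragments untreated (fold 3.20, −log10 q 1.75, chr8:105566029-105566348) and 15 with R848 (fold 4.42, −log10 q 4.04, chr8:105566069-105566400). Atp6v1a, the gene of the catalytic A subunit of V1, had the same folds (3.20 and 4.42) at overlapping peaks whose summits lay 1217 and 1167 bp upstream of its listed start, beside Naa50. A further untreated peak of Atp6v1a spanned that start (13 fragments, chr16:44139076-44139556, summit 92 bp downstream), with no overlapping R848 peak, and covered the CACGTG at 131 bases before it. Atp6v1h, which encodes the regulatory H subunit, had overlapping peaks of 12 and 11 fragments at its lowest-coordinate end (folds 2.98 and 3.32). Atp6v1d, the gene of the D subunit of the central stalk, had 17 fragments untreated and 10 with R848 (folds 4.12 and 3.04), with summits 259 and 257 bp upstream of its listed start, beside Eif2s1, a translation initiation factor gene. Atp6v0c encodes the proteolipid of the proton-carrying ring, and its peaks lay at its 3′ end beside Amdhd2 in both lists (22 and 9 fragments, folds 4.08 and 2.76). No peak lay within 1000 bp of a listed start of Atp6v0c.

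Atp6v1b2, which encodes a B subunit of V1, was the 1 gene of the 36 with a gene-end peak in the R848 list alone. Its peak held 11 fragments (fold 3.32, −log10 q 1.51, chr8:69088518-69088902), with its summit 178 bp outside the gene's lowest coordinate, and also lay at an end of Slc18a1. Atp6v0a1, which encodes an a subunit of V0, had a weak untreated peak at its 5′ end (10 fragments, fold 2.52, −log10 q 0.46) and an R848 peak 17684 bp into the gene (fold 3.32). Atp6v1c1, the gene of the C subunit, had no peak.

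Tfeb, the regulator of the set, had gene-end peaks in both libraries and further peaks inside. RefSeq lists 3 transcript starts for it. In the untreated list the gene-end peak had 14 fragments (fold 3.04, −log10 q 1.71, chr17:47737175-47737820), with its summit 275 bp upstream of the second start. With R848 there were 2 gene-end peaks, a weaker one with its summit 5 bp upstream of the first start (11 fragments, fold 2.80) and one of 16 fragments with its summit 141 bp upstream of the second (fold 3.88, −log10 q 3.37, chr17:47737638-47738106). Both overlapped the untreated peak. About 23 kb into Tfeb another pair overlapped, with 10 fragments untreated and 12 with R848 (folds 2.52 and 3.59). Untreated peaks with summits 1428, 31713 and 47293 bp from the gene's 5′ end had no overlapping R848 peak. None of the 3 listed promoters of Tfeb contains CACGTG.

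**Figure D3:**
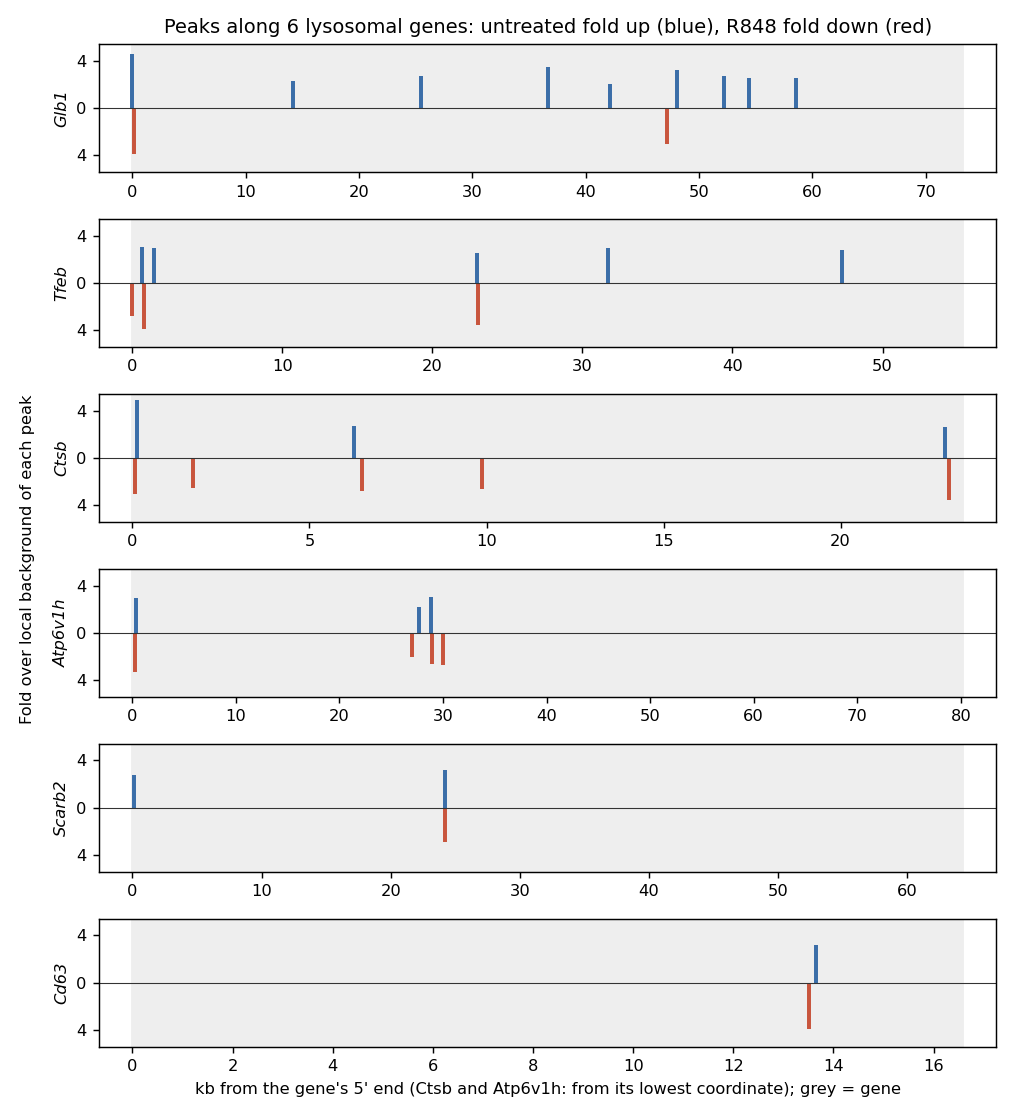
Peaks along 6 of the genes; the horizontal axis is the distance in kb from the gene's 5′ end (for Ctsb and Atp6v1h, from its lowest coordinate), grey marks the gene, and line length is the fold of each peak, upward for the untreated and downward for the R848 library. Pairs at matching positions are seen at the starts of Glb1 and Tfeb, at both ends of Ctsb, about 24 kb into Scarb2 and inside Cd63, while most peaks inside Glb1 were in the untreated list.

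Inside the genes, away from the end windows, the untreated list had 24 peaks and the R848 list 17. Of these, 7 in each list overlapped a peak of the other library (29.2% and 41.2%), against 17 of 36 (47.2%) and 18 of 20 (90%) gene-end peaks. Over all protein-coding genes, 26.6% of untreated and 30% of R848 peaks inside genes and away from gene ends overlapped the other list, as did 52.3% and 62.1% of gene-end peaks. The untreated share of the 36 genes was therefore below that of all gene-end peaks and the R848 share above it, on 20 peaks and without a test. Inside peaks had a median fold of 2.75 untreated and 2.76 with R848. Glb1 alone held 8 of the untreated inside peaks and 1 of the R848 ones, none of them overlapping. Counting any peak from 1000 bp before to 1000 bp after a gene, 29 of the 36 had one without treatment (80.6%, against 49.1% of all protein-coding genes) and 24 with R848 (66.7%, against 44.5%). No peak in either list was found for 5 genes, Ctsh, Gaa, Ppt1, Mcoln1 and Atp6v1c1, whereas 41.8% of all protein-coding genes had none. Longer genes span more sequence in such a count, and the 36 genes had a median length of 20428 bp against 17169 bp for all protein-coding genes.

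The position of a gene-end peak could be set against a transcript start for the 29 genes in the promoter table. Ctsb, Ctsh, Npc1, Asah1, Atp6v1h, Atp6v1b2 and Atp6v1c1 are not in it. A peak within 1000 bp of a listed start was found for 22 of the 29 genes in the untreated list (75.9%, against 28.7% of 17492 protein-coding genes) and for 13 in the R848 list (44.8%, against 24.1%). Of 23 untreated peaks at 5′ ends, 19 had their summit within 400 bp of a listed start, as had 13 of 14 R848 peaks, with median distances of 117 and 146 bp. Summits lay on both sides of the start, downstream in 13 of 23 and 6 of 14 peaks. Peaks at 3′ ends numbered 9 (untreated) and 1 (R848). A further 4 untreated and 5 R848 gene-end peaks lay at genes without a listed strand and could not be assigned to either end.

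**Figure D4:**
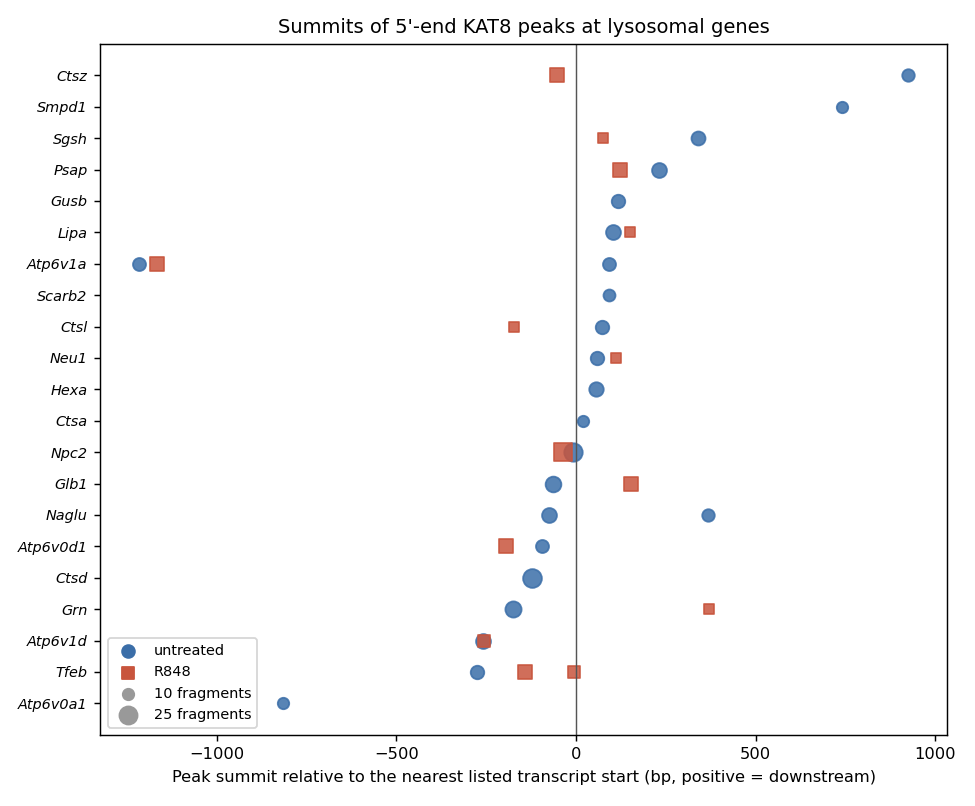
Summit of each 5′-end peak relative to the nearest listed transcript start (bp, positive downstream) for genes with a known strand, untreated in blue circles and R848 in red squares, with symbol area in proportion to the fragments at the summit. Most summits lie within 400 bp of the start; in the untreated list those of Atp6v1a (beside Naa50), Ctsz, Atp6v0a1 and Smpd1 lie further away, and in the R848 list that of Atp6v1a.

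Many of these windows are shared with a neighbour. Of the 27 genes with a gene-end peak in either list, 17 had at least 1 such peak that also lay within 1000 bp of an end of another protein-coding gene. Without those peaks, 16 of the 36 genes had one untreated, where 20.6% of all protein-coding genes had a peak at no other gene's end. With R848, 9 of the 36 did, against 17.5%. With shared peaks counted, the shares were 72.2% against 28.8% untreated and 50% against 24.4% with R848. Leaving shared peaks out thus brought the 36 genes closer to all protein-coding genes in both libraries. The R848 share then lay only a little above that of all protein-coding genes, without a test. Whether a shared peak belongs to the lysosomal gene or its neighbour cannot be told apart.

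The CLEAR core was more frequent in these promoters than among promoters at large, and genes with and without it had KAT8 peaks. CACGTG, which reads the same on both strands, occurred in the 300 bases around a listed start (250 before and 50 after) of 11 of the 29 genes (37.9%), against 8.91% of 17492 protein-coding genes. The longer TCACGTGA, which contains it, occurred in 5 (17.2%, against 1.41%). Of the 11 genes with CACGTG, 8 carried a gene-end peak without treatment and 5 with R848. Of the 18 without it, 15 and 9 did. Of the 17 copies of CACGTG in these promoters, 9 (in 7 genes) lay inside an untreated peak and 2 (in Glb1 and Sgsh) inside an R848 peak. The R848 list had fewer gene-end peaks at the 36 genes (20 against 36). The share of copies inside peaks over all promoters was not measured, so these counts have no background. The 3 genes with the motif and no gene-end peak were Lamp1, Mcoln1 and Gaa, shown above. The member promoters had a median GC content of 59.3% and 15 CG dinucleotides, against 56.3% and 13 over all protein-coding promoters.

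A wider list of 52 further lysosomal genes had lower shares than the 36. Gene-end peaks lay at 24 of them untreated (46.2%) and at 18 with R848 (34.6%), again above all protein-coding genes (28.8% and 24.4%), with 14 in both, 10 in the untreated list alone and 4 in the R848 list alone. The strongest in both lists were Aga, an enzyme of glycoprotein breakdown (folds 3.66 untreated and 7.46 with R848), Gm2a, the GM2 activator gene (4.35 and 7.18), and Slc17a5, the lysosomal sialic acid exporter gene (5.26 and 3.87). Hgsnat, an acetyltransferase gene of heparan sulfate breakdown, had the highest fold of the untreated-only genes (4.35). Cln3, a lysosomal membrane protein gene, had the highest fold of the R848-only genes (3.32), followed at equal fold by Acp5, the gene of tartrate-resistant acid phosphatase, and Ctsc, the gene of cathepsin C (2.76 each). Of the other 10 pump genes, 4 had a gene-end peak untreated and 2 with R848. Of the 24 further hydrolases and cofactors, 9 (37.5%) and 8 (33.3%) did. The contrast between pump and hydrolases in the 36 genes was thus not seen here. Among 4 regulators, Tfe3 had overlapping peaks in both lists (3.66 and 2.76), Flcn, a regulator of TFEB and TFE3 localisation, had one in the untreated list alone (2.98), and Mitf and Tfec had none at gene ends.

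Markers of the labelled cell type were checked at gene ends in the same way, although a KAT8 peak is not a measure of expression. Among 10 macrophage genes, 3 were counted untreated and 4 with R848, against 28.8% and 24.4% of all protein-coding genes, so the untreated share was at the background. Of these 10, Csf1r, Adgre1, Itgam, Fcgr1 and Lyz2 had none at gene ends. Of 6 T and B cell genes, none and 2 did (Cd3d and Zap70), and none of 6 neutrophil or 5 stromal genes did in either list. With peaks inside genes counted too, 6 and 9 of the 10 macrophage genes had one, against 49.1% and 44.5% of all protein-coding genes. So did 2 and 3 of the 5 stromal genes, none and 2 of the T and B cell genes, and no neutrophil gene. No control or accessibility library was analysed here, so KAT8 binding and general cutting of open chromatin cannot be told apart at these genes.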

How the data were processed

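KAT8 CUT&Tag peak lists from 1 untreated and 1 R848 library were used, grouped by the treatment label. The submitters' processing notes list DiffBind, Bowtie 0.12.8 and MACS2 2.2.7.1, and the mm10 build, without saying what each did. For caller settings and a control library the status is: not given in the sources used here. Each deposited peak has a summit, a score, a ratio to local background (fold) and its p-value and q-value as −log10. The score was 10 times −log10 p to within 1.

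Genes and promoters came from RefSeq tables (GRCm38.p6, which mm10 represents) that hold no exons, and the 36 genes were matched by symbol. Peaks were counted within 1000 bp of either gene end and inside genes. Summit pileup and background were solved by taking the fold as pileup + 1 over background + 1 and the p-value as a Poisson tail, which gave whole pileups (tolerance 0.05). Interval code was tested on simulated data and gave the same genes as bedtools 2.31.1. Python 3.11.15 and scipy 1.17.1 were used. Members, lists and the rule for named genes were chosen with earlier results of these data known: each member is accounted for, and from the wider list the 3 strongest genes in both lists and the 2 strongest in each list alone are named, except for an item that is not reported here. Alternatives are in the closing section.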

Additional observations from a re-analysis of the deposited data

How the results depend on the processing

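Limits first: with 1 library per group nothing below has a replicate check, the R848 library is the shallower, and a peak of 8 to 15 fragments lies close to what either library listed. No paired analysis was possible because each group has 1 library. Of 53 counts under other settings, 33 stayed within 1.5 times the reported count and 20 did not. Lists of equal length and windows of 3000 bp moved no count beyond that. Equal length shortened only the untreated list, so the R848 count under it could not change. The 33 also include every count with scaled untreated pileups, which could not change either. Scaling untreated pileups to the R848 background, added after the data were seen, could remove no gene, since the smallest of their gene-end pileups was 10 fragments, and says nothing about depth. A −log10 q of at least 1.3 in both lists left 11 genes in the R848 list (18 as reported), 8 in both (17) and 3 R848 only (1). A −log10 q of at least 5 left 5 genes in the untreated list (26), 1 in the R848 list, 1 in both, 4 untreated only (9) and 0 R848 only. With a q of 0.05 against any peak of the other list, 4 genes were untreated only. Where the 2 peaks had to overlap by 50% of each, 10 genes were shared, 16 untreated only and 8 R848 only, and with an overlap of 1 bp 2 were R848 only. The R848-only count was 2 with windows of 500 bp, 2 over the whole gene and 0 at listed transcript starts. Without peaks also at another gene's end (added after the data were seen), 16 genes had an untreated peak, 9 an R848 peak, 9 both and 0 R848 only. Fewer peaks or genes enter under the stricter settings, and no other cause was tested.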
